A study of Arabidopsis thaliana with 9 samples.

Results

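The 8 Arabidopsis thaliana loci followed here detect microbes or the cell wall or relay that detection, and were looked for in stem transcriptomes of 2 lignin-modified lines. They are FLS2, EFR, CERK1, BAK1, BIK1, FRK1, WAK1 and WAK2. They were found by locus in the authors' table of selected probe sets or in the platform annotation, without the probe sets that by their suffix match several related transcripts. Of the 8 loci, 4 had a named probe set, which are FLS2, EFR, BIK1 and WAK1, among 14884 named probe sets and 22746 probe sets in all. CERK1, BAK1, FRK1 and WAK2 had none and were not analysed here. The naming bears on the results: FLS2 and WAK1 got their names from the authors' table alone, where nearly all probe sets with a 2-fold change lie, whereas EFR and BIK1 were named by the platform annotation and lie outside it.

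Inflorescence stems of 1.5-month-old plants of ecotype Columbia-0 were profiled on 9 Affymetrix ATH1 arrays, which read a transcript through several short oligonucleotides, together called a probe set. There were 3 arrays each for the loss-of-function mutant ccr-1, the HCT-RNAi line and the wild type (WT), and all plants had 16 h of light and 8 h of dark a day. CCR1 (cinnamoyl-CoA reductase) opens the branch of metabolism that is specific to lignin monomers, and HCT is a hydroxycinnamoyl transferase acting earlier in the same pathway. The promoter of the RNAi construct, the number of independent lines and whether plants were pooled are not stated in the labels. No label says that replicates came from separate plants, and the p-values therefore measure array-to-array spread, which may be technical.

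Plants detect microbes through receptor kinases at the cell surface. FLS2 binds a peptide of bacterial flagellin and EFR a peptide of the bacterial elongation factor Tu, each recruits the co-receptor kinase BAK1, and the cytoplasmic kinase BIK1 carries the signal on to targets such as the NADPH oxidase RBOHD. CERK1 is a kinase needed for the response to chitin, and FRK1 is a kinase gene widely used as a marker of the response. Wall-associated kinases such as WAK1 and WAK2 bind pectin, and WAK1 is a receptor for oligogalacturonides, the fragments released when pectin is cut.

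Targeted transcripts were low in their own line: CCR1 fell by 1.81 on the log2 scale in ccr-1, and HCT fell by 3.53 in HCT-RNAi (limma, adjusted p = 7.84e-11 and 1.33e-13). Each also fell, by less, in the other line, with CCR1 at -0.76 in HCT-RNAi and HCT at -0.55 in ccr-1. Xylem genes, which mark the labelled tissue, were called present on all arrays for the 6 of 8 listed genes that had a name. Their summed intensity was 7645 to 7859 on ccr-1 arrays, 7943 to 8755 on HCT-RNAi arrays and 23375 to 25537 on WT arrays. The 8 named floral organ markers summed to 2888 to 3045, 998.2 to 1024 and 255.7 to 269.95 on the same arrays, and AP3 and SHP2 were called absent on all WT arrays. AP1 and PI were called present on all 3 WT arrays, and the other floral markers on some of them. The 8 seed storage markers summed to 75262 to 78141 on ccr-1 arrays, against 148.3 to 150.6 on HCT-RNAi arrays and 148.3 to 159.3 on WT arrays, where CRA1 and SESA1 were called absent throughout. The other seed storage markers were called present on some of those arrays, OLEO1 on all 3 HCT-RNAi arrays and 1 WT array. The 6 named epidermis markers summed to 9827 to 10493 in ccr-1, 4020 to 4222 in HCT-RNAi and 9005 to 9139 in WT. The 2 named phloem markers summed to 545.9 to 566.1, 908.7 to 936.7 and 955.2 to 1047 in the same order of groups. Both sums hide single markers that moved in opposite directions. Of the epidermis markers, 4 rose and 1 fell in ccr-1, and 2 rose and 4 fell in HCT-RNAi. Over all probe sets 24.7% were called higher and 30.1% lower in ccr-1, and 32.9% and 27.7% in HCT-RNAi. PDF1 rose by 3.41 in ccr-1 and 3.05 in HCT-RNAi, whereas MAH1 fell by 0.61 and 2.75. Of the phloem markers, APL rose and SEOR1 fell in HCT-RNAi, and in ccr-1 only SEOR1 was called, as lower. The log2 signal of actin at its 3' end exceeded that at its 5' end by 3.86 ± 0.04 in ccr-1, 4.36 ± 0.02 in HCT-RNAi and 3.98 ± 0.06 in WT (SD, n = 3 each). For GAPDH the same difference was 1.61 ± 0.05 in ccr-1, 1.78 ± 0.12 in HCT-RNAi and 1.46 ± 0.06 in WT. Of 6 listed evening genes of the circadian clock, the 3 with a name rose in HCT-RNAi by a median of 1.22. In ccr-1 their median change was 0.27, with 2 of the 3 called. PRR5 among them was called present on 1 of 3 arrays in ccr-1 and in WT. None of 4 listed morning genes had a name. The part of tissue makeup, RNA quality or hour of harvest in the results below was not tested, and in such bulk samples fewer cells of a type and less RNA per cell cannot be told apart.

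**Figure D1:**
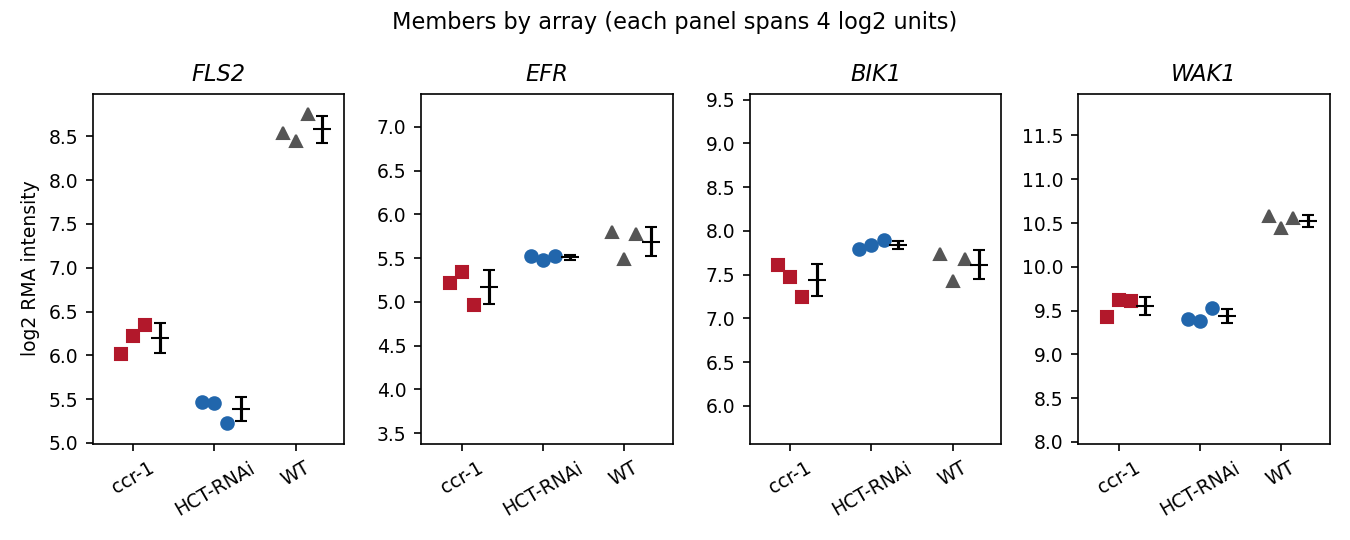
Log2 RMA intensity of FLS2, EFR, BIK1 and WAK1 on each array, with ccr-1 as squares, HCT-RNAi as circles and WT as triangles; the bar beside each group is the mean ± SD of 3 arrays, and each panel spans 4 log2 units. FLS2 and WAK1 lie lower on all 6 arrays of both lines than on any WT array, while EFR and BIK1 move within a narrow band.

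FLS2, the flagellin receptor (AT5G46330, probe set 248895_at), was the member with the largest change in both lines. Its RMA intensity was 64.9, 74.7 and 81.7 on the ccr-1 arrays, 44.4, 44.1 and 37.5 on the HCT-RNAi arrays, and 371.5, 350.2 and 430.8 on the WT arrays. All 6 arrays of the lines lay far below the lowest WT array, HCT-RNAi was the lowest group, and the 3 groups did not overlap. FLS2 fell by 2.38 ± 0.10 on the log2 scale in ccr-1, a 5.21-fold lower level (SE, n = 3 arrays per group; adjusted p = 8.21e-10). In HCT-RNAi it fell by 3.19 ± 0.10, which is 9.14-fold lower (adjusted p = 3.89e-11). Between the lines, FLS2 was higher in ccr-1, by 0.81 ± 0.10 (log2, ccr-1 minus HCT-RNAi; 95% confidence interval 0.59 to 1.03, adjusted p = 1.72e-05). The authors' detection calls marked it present on all 9 arrays, so the lower levels are measurements and not bounds.

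The fall of FLS2 stood far out among all probe sets. In ccr-1 only 26 of 22746 probe sets had a change as low or lower, FLS2 included, and in HCT-RNAi 64 did. Probe sets lower by at least 2-fold made up 3.71% of all probe sets in ccr-1 and 5.79% in HCT-RNAi, and 22.3% and 34.8% of those in the authors' table.

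**Figure D2:**
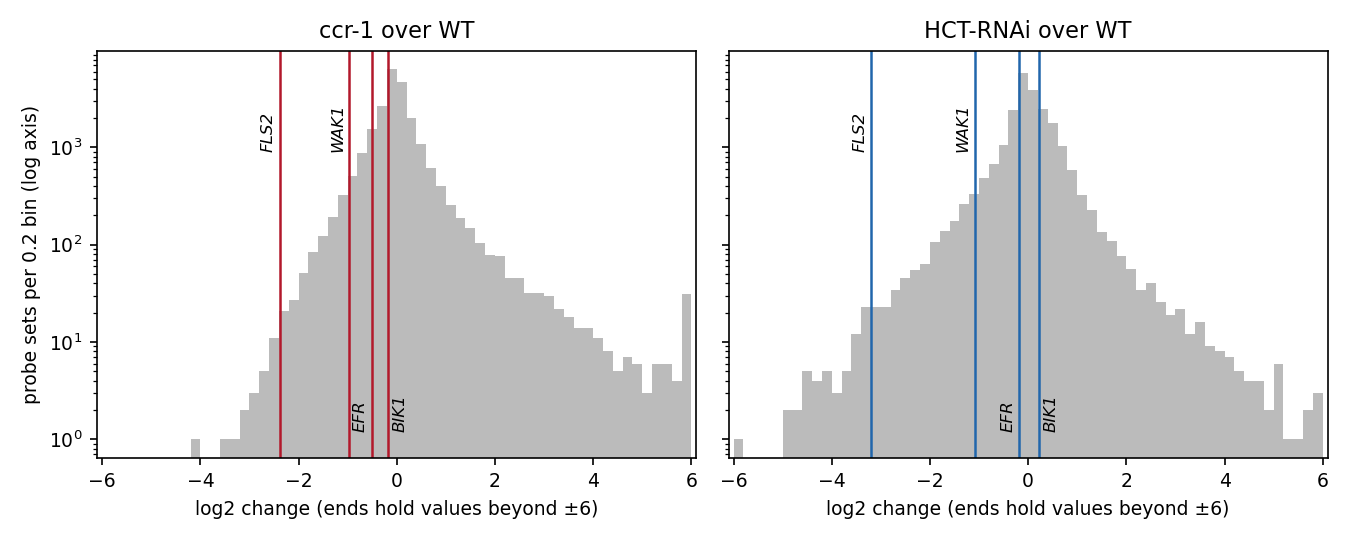
Number of probe sets (log axis) by log2 change against WT in bins of 0.2, for ccr-1 (left) and HCT-RNAi (right); vertical lines mark the 4 members. FLS2 lies in the lower tail of both distributions at -2.38 and -3.19, WAK1 near -1 in both, and EFR and BIK1 near the centre.

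EFR (AT5G20480, 246082_at), the receptor for elongation factor Tu, read a low intensity in every group. It had 37.2, 40.5 and 31.1 on the ccr-1 arrays, 45.97, 44.5 and 45.996 on the HCT-RNAi arrays, and 55.7, 45.04 and 54.6 on the WT arrays. The ccr-1 arrays lay below all WT arrays, whereas the HCT-RNAi arrays overlapped with WT replicate 8. EFR fell by 0.51 ± 0.10 on the log2 scale in ccr-1 (adjusted p = 0.000692). In HCT-RNAi its difference of -0.18 ± 0.10 did not pass (adjusted p = 0.137; 95% confidence interval -0.40 to 0.04), and without WT replicate 8 it was -0.28 and passed (adjusted p = 0.0279), as it did after median centring of each array. EFR was lower in ccr-1 relative to HCT-RNAi (log2 change -0.33 ± 0.10, adjusted p = 0.0113). Detection calls for EFR and BIK1 were not analysed here. In the authors' table, 81.4% of the 4273 values between 32 and 64 were called present, and 1 ccr-1 array read below that range. EFR lies outside that table, whose probe sets were selected, so this share need not hold for EFR.

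BIK1 (AT2G39660, 267624_at), the cytoplasmic kinase downstream of both receptors, was the member whose level differed between the lines and not clearly from the wild type. Its intensity was 195.3, 177.8 and 151.8 on the ccr-1 arrays, 222.3, 228.4 and 237.4 on the HCT-RNAi arrays, and 212.7, 171.8 and 204.95 on the WT arrays. The HCT-RNAi arrays lay above all others, and the ccr-1 and WT arrays overlapped. BIK1 was lower in ccr-1 relative to HCT-RNAi (log2 change -0.40 ± 0.10, 95% confidence interval -0.61 to -0.19, adjusted p = 0.00337). Against WT the change was -0.17 ± 0.10 in ccr-1 (adjusted p = 0.165) and 0.23 ± 0.10 in HCT-RNAi (adjusted p = 0.0583), neither of which passed. Both calls depended on the WT arrays kept, and that of HCT-RNAi also on the fit. The ccr-1 change passed without WT replicate 8 (-0.26, adjusted p = 0.036), and the HCT-RNAi change passed without WT replicate 7 (0.29, adjusted p = 0.0378) and under 3 other settings given in the closing section.

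WAK1 (AT1G21250, 259561_at), the wall-associated kinase that binds pectin and its fragments, fell by nearly the same amount in both lines. Its intensity was 690.1, 788.4 and 779.4 on the ccr-1 arrays, 677.5, 667.2 and 737.1 on the HCT-RNAi arrays, and 1527, 1391 and 1504 on the WT arrays. All 6 arrays of the lines lay below the lowest WT array, and the lines overlapped with each other. WAK1 fell by 0.97 ± 0.07 on the log2 scale in ccr-1, 1.96-fold lower (adjusted p = 1.1e-07). In HCT-RNAi it fell by 1.09 ± 0.07, which is 2.12-fold lower (adjusted p = 2.91e-08). The difference between ccr-1 and HCT-RNAi, 0.12 ± 0.07, did not pass (adjusted p = 0.175), with a 95% confidence interval of -0.04 to 0.27. It passed after median centring of each array, at 0.19 (adjusted p = 0.0213), and without ccr-1 replicate 4, at 0.18 (adjusted p = 0.0463). WAK1 was called present on all 9 arrays.

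**Figure D3:**
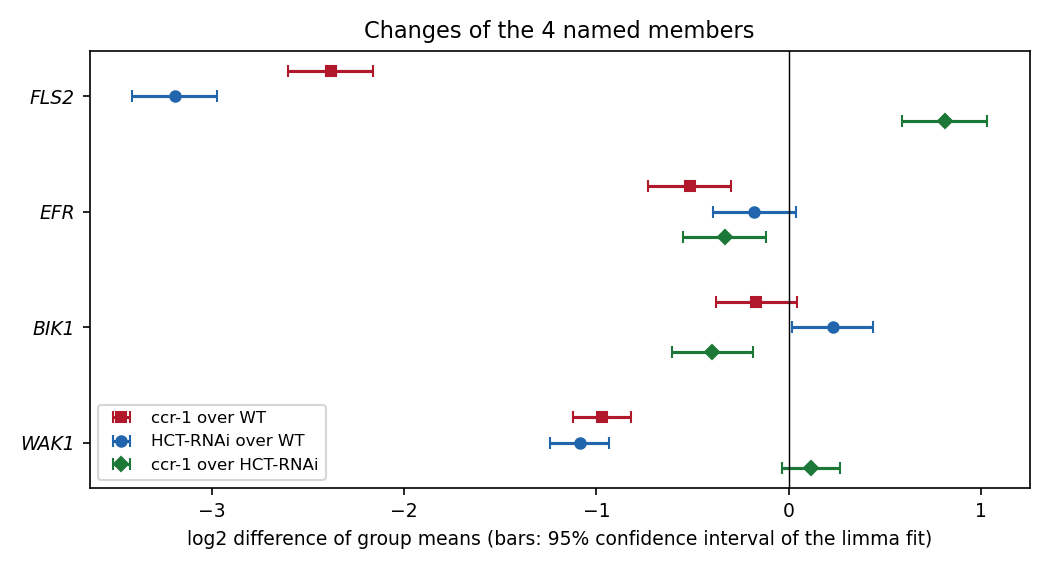
Log2 difference of group means for each member, with the 95% confidence interval of the limma fit, for ccr-1 over WT (squares), HCT-RNAi over WT (circles) and ccr-1 over HCT-RNAi (diamonds). The interval of FLS2 between the lines lies above 0, those of EFR and BIK1 between the lines lie below 0, and that of WAK1 between the lines includes 0.

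Counted together, 3 of the 4 members fell in ccr-1 (FLS2, EFR and WAK1), where 30.1% of all probe sets were called lower. In HCT-RNAi 2 of the 4 fell (FLS2 and WAK1), where 27.7% were called lower. Between the lines 1 of 4 was higher in ccr-1 (FLS2) and 2 were lower (EFR and BIK1), beside 25.4% and 33.6% of all probe sets and 58.9% in either direction. The groups did not overlap for 3 members in each of the 3 comparisons, and for 59.3%, 66.6% and 63.0% of all probe sets in ccr-1 against WT, HCT-RNAi against WT, and ccr-1 against HCT-RNAi. Among the probe sets of the authors' table, from which FLS2 and WAK1 took their names, 44.4% were called lower in ccr-1 and 45.8% in HCT-RNAi, and 53.3% were called higher in ccr-1 relative to HCT-RNAi. The comparisons with WT share their WT arrays.

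The profile nearest to that of WAK1, out of 9607 named probe sets, belonged to a gene of pattern signalling. Profiles were compared over the 9 arrays by the Euclidean distance of log2 values relative to the WT mean. XLG2 (AT4G34390), an extra-large G protein that works with FLS2 and BIK1, lay at a distance of 0.12, and its own change was -0.98 ± 0.06 in ccr-1 and -1.08 ± 0.06 in HCT-RNAi. AT3G49810, described in the authors' table as a ubiquitin ligase of the ARM repeat family, came next at 0.16. Nearest to FLS2 were BGLU46 (AT1G61820), a beta-glucosidase that acts on monolignol glucosides, at 0.44, with changes of -2.50 in ccr-1 and -3.27 in HCT-RNAi, and AT3G23090, of the TPX2 protein family, at 0.47. EFR was nearest to AT1G21080 and AT2G19130, both at 0.23, and BIK1 to AT3G50860 at 0.16 and to the DNA demethylase gene DME at 0.20. On the chromosome, the named locus directly after FLS2 is RWA1, a gene of wall polysaccharide acetylation, which changed by -1.73 in ccr-1 and -1.11 in HCT-RNAi. The locus directly before it, AT5G46320, changed by -0.10 and -0.15.

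Beyond the members, 84 further loci of the pathway were listed in 5 groups, of which 29 had a name, and the authors' table holds 22 of these. In ccr-1 24 of the 29 fell and 3 rose, beside 30.1% and 24.7% of all probe sets. In HCT-RNAi 25 fell and 3 rose, beside 27.7% and 32.9%. The median change was -0.95 in ccr-1 and -0.97 in HCT-RNAi, beside medians of -0.04 and -0.01 over all probe sets. In the authors' table as a whole the medians were 0.12 and -0.01. For the 7 genes outside it they were -0.44 and -0.45. Part of the 22 genes inside it, like FLS2 and WAK1, were named by that table alone, where nearly all 2-fold changes lie. A listed gene with little change thus had less chance of a name. In both lines 22 of the 29 genes fell, 1 rose (SERK2) and 3 were called in opposite directions (RLP1, LORE and BIR3). Of the 22 genes in the authors' table, 19 fell in ccr-1 and 18 in HCT-RNAi. Of all probe sets in that table, 44.4% and 45.8% were called lower. Of the 7 outside it, 5 fell in ccr-1 and 7 in HCT-RNAi, where 27.3% and 24.1% of the probe sets outside that table were called lower. On the same arrays the floral organ markers rose, 8 of 8 in each line, and the named xylem markers fell, 6 of 6 in each line.

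**Figure D4:**
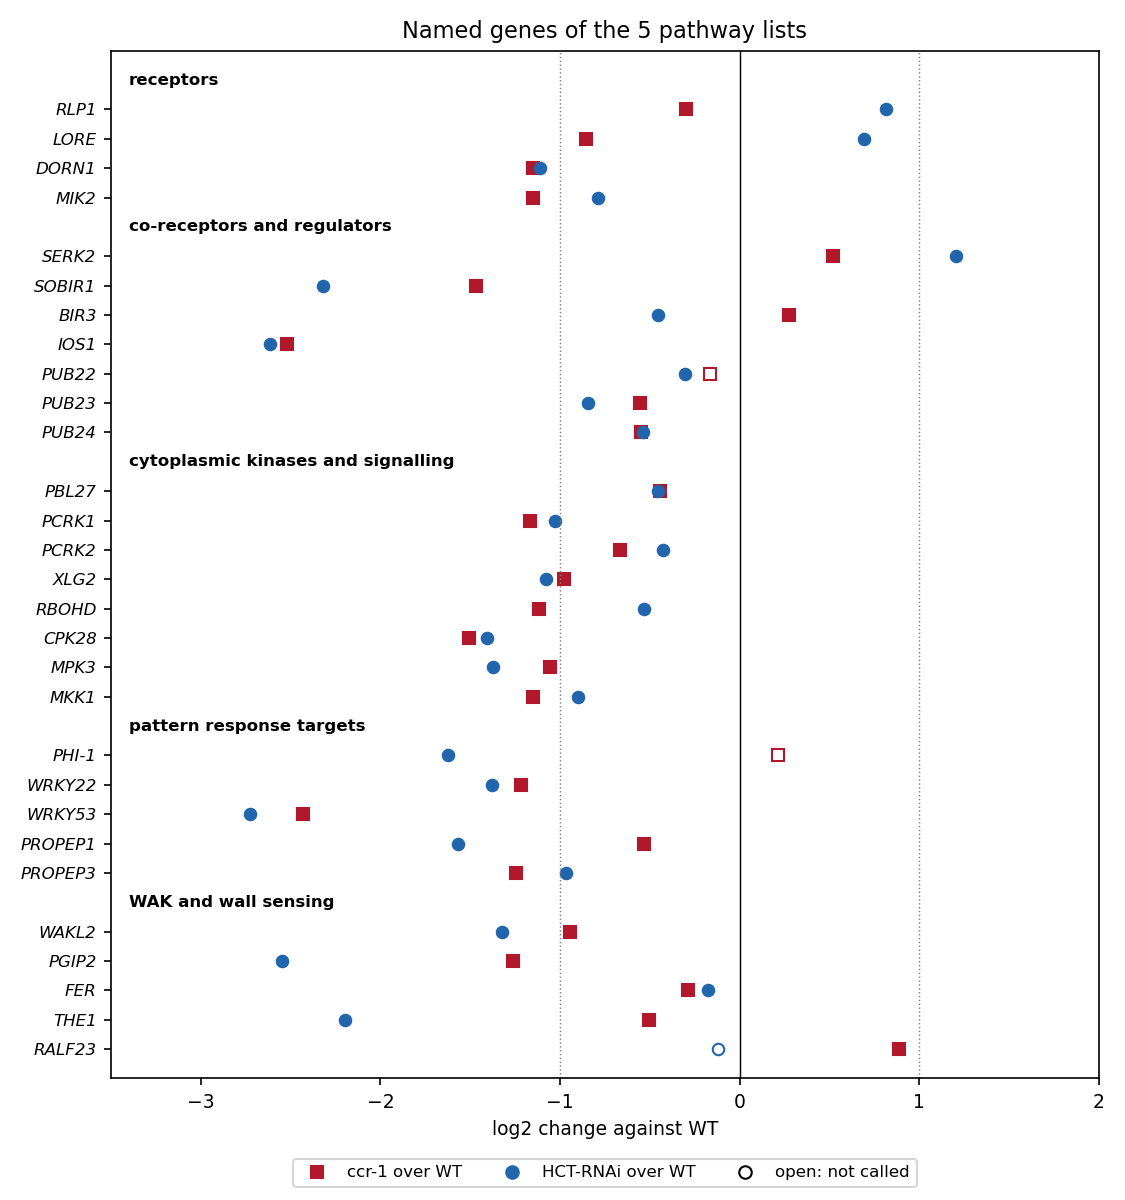
Log2 change against WT of the 29 named genes of the 5 pathway lists, in ccr-1 (squares) and HCT-RNAi (circles); open symbols did not pass at an adjusted p of 0.05 and dotted lines mark a 2-fold change. Most points lie left of 0, and all 8 cytoplasmic kinase and signalling genes do so in both lines.

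Of 15 other cell-surface receptors listed, 4 had a name. All 4 fell in ccr-1, with a median of -1.01, while 2 fell and 2 rose in HCT-RNAi. All 4 are in the authors' table, where 44.4% of probe sets were called lower in ccr-1, and 45.8% lower and 46.2% higher in HCT-RNAi. DORN1, a receptor for extracellular ATP, fell in both lines, with log2 changes of -1.15 ± 0.06 in ccr-1 and -1.11 ± 0.06 in HCT-RNAi. MIK2, a receptor kinase of peptide and wall sensing, had changes of -1.15 ± 0.06 and -0.79 ± 0.06, both called. LORE, the receptor for bacterial hydroxy fatty acids, had 48.95, 58.8 and 65.2 on the ccr-1 arrays, 166.9, 165.9 and 170.3 on the HCT-RNAi arrays, and 103.1, 105.2 and 103.1 on the WT arrays. Its 3 groups did not overlap, with HCT-RNAi above WT and ccr-1 below it. LORE was lower in ccr-1 relative to HCT-RNAi (log2 change -1.55 ± 0.09, adjusted p = 1.16e-08). RLP1, a receptor-like protein, showed the same order at -0.30 ± 0.06 in ccr-1 and 0.82 ± 0.06 in HCT-RNAi.

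Co-receptors and the proteins that restrain them had 7 names of 15 listed. In ccr-1 4 fell and 2 rose (median -0.55), and in HCT-RNAi 6 fell and 1 rose (median -0.54). Over all probe sets 30.1% were called lower and 24.7% higher in ccr-1, and 27.7% and 32.9% in HCT-RNAi. Of the 7 genes 3 are in the authors' table, where 44.4% of probe sets were called lower in ccr-1 and 45.8% in HCT-RNAi. SOBIR1, the kinase partner of receptor-like proteins, had 755.04, 735.7 and 767.6 on the ccr-1 arrays, 408.1, 418.7 and 427.9 on the HCT-RNAi arrays, and 2097, 2106 and 2050 on the WT arrays. It thus fell in both lines without overlap, at -1.47 ± 0.05 in ccr-1 and -2.32 ± 0.05 in HCT-RNAi, and like FLS2 it was lowest in HCT-RNAi (ccr-1 minus HCT-RNAi 0.85 ± 0.05, adjusted p = 2.54e-08). IOS1, a leucine-rich repeat kinase that associates with FLS2, was called present on all WT arrays and absent on all arrays of both lines. Against the level of those arrays, which lay above the lowest signal called present there, it was at least 5.74-fold lower in ccr-1 and at least 6.14-fold lower in HCT-RNAi (adjusted p = 2.57e-09 and 1.27e-09). SERK2, a relative of BAK1 best known from anther development, rose by 0.52 ± 0.06 in ccr-1 and by 1.21 ± 0.06 in HCT-RNAi. BIR3, which holds BAK1 away from receptors, rose in ccr-1 (0.28 ± 0.07) and fell in HCT-RNAi (-0.45 ± 0.07). The ubiquitin ligases PUB23 and PUB24, which dampen pattern responses, fell in both lines, at -0.56 and -0.55 in ccr-1 and -0.85 and -0.54 in HCT-RNAi. Their relative PUB22 was at -0.17 ± 0.08 in ccr-1 without passing (adjusted p = 0.115) and fell in HCT-RNAi (-0.31 ± 0.08).

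The cytoplasmic kinases and signalling components that had a name moved one way. All 8 named genes of 24 listed fell in each line, 5 of them by at least 2-fold in ccr-1 and 4 in HCT-RNAi, with medians of -1.09 and -0.97. Of these 8 genes 6 are in the authors' table, where 44.4% of probe sets were called lower in ccr-1 and 45.8% in HCT-RNAi, and 22.3% and 34.8% lower by at least 2-fold. XLG2, RBOHD, CPK28, MPK3 and MKK1 were named by that table alone. The counts thus do not speak for the listed genes without a name. Over all probe sets the shares called lower were 30.1% and 27.7%, and those lower by at least 2-fold 3.71% and 5.79%. RBOHD, the oxidase that BIK1 activates, had 451.8, 437.4 and 477.9 on the ccr-1 arrays, 693.8, 678.1 and 678.1 on the HCT-RNAi arrays, and 967.3, 1034 and 966.4 on the WT arrays. The order of its groups, with ccr-1 lowest, differed from that of FLS2, with a log2 change of -1.12 ± 0.06 in ccr-1 and -0.53 ± 0.06 in HCT-RNAi and a difference of -0.59 ± 0.06 between ccr-1 and HCT-RNAi (adjusted p = 1.77e-06). CPK28, a calcium-dependent kinase that limits BIK1 levels, was at -1.51 ± 0.08 in ccr-1 and -1.41 ± 0.08 in HCT-RNAi, where 2 of 3 arrays were called present. The MAP kinase gene MPK3 was at -1.05 ± 0.05 and -1.37 ± 0.05, and the MAP kinase kinase gene MKK1 at -1.15 ± 0.07 and -0.90 ± 0.07. The cytoplasmic kinases PCRK1, PCRK2 and PBL27, which act in pattern immunity beside BIK1, were at -1.17, -0.67 and -0.44 in ccr-1 and at -1.03, -0.42 and -0.46 in HCT-RNAi.

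Genes that respond to patterns had 5 names of 14 listed, of which 4 fell in ccr-1 (median -1.22) and 5 in HCT-RNAi (median -1.57). All 5 are in the authors' table, with its shares of 44.4% and 45.8% called lower. The transcription factor genes WRKY53 and WRKY22 fell in both lines. WRKY53 was at -2.43 ± 0.09 in ccr-1 and -2.73 ± 0.09 in HCT-RNAi, and WRKY22 at -1.22 ± 0.11 and -1.38 ± 0.11. PROPEP1 and PROPEP3 encode precursors of Pep peptides, danger signals read through a BAK1-dependent receptor. PROPEP1 was at -0.53 ± 0.07 in ccr-1 and -1.57 ± 0.07 in HCT-RNAi, and PROPEP3 at -1.24 ± 0.13 and -0.97 ± 0.13, all called. PHI-1 was at 0.22 ± 0.11 in ccr-1 without passing (adjusted p = 0.115), although the ccr-1 arrays lay above all WT arrays, and passed with only those groups fitted (adjusted p = 0.00871) and with 32 added to the intensities (0.0495). In HCT-RNAi PHI-1 fell (-1.63 ± 0.11), where 1 of 3 arrays was called present.

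Around the wall-associated kinases, 5 of 16 listed genes of wall sensing had a name. In ccr-1 4 fell and 1 rose (median -0.505), and in HCT-RNAi 4 fell and 1 did not pass (median -1.32). Of these 5 genes 4 are in the authors' table, where 44.4% of probe sets were called lower in ccr-1 and 45.8% in HCT-RNAi. Over all probe sets the shares called lower were 30.1% and 27.7%. WAKL2, a relative of WAK1, fell in ccr-1 (-0.95 ± 0.08), with 2 of 3 arrays called present, and in HCT-RNAi (-1.32 ± 0.08), with 1 of 3. PGIP2, an inhibitor of the polygalacturonases that release oligogalacturonides, had 787, 787 and 771.6 on the ccr-1 arrays, 300.95, 316.2 and 343.4 on the HCT-RNAi arrays, and 1780, 1797 and 2055 on the WT arrays. It fell in both lines without overlap, at -1.26 ± 0.07 in ccr-1 and -2.55 ± 0.07 in HCT-RNAi. THE1, a receptor kinase of wall integrity, fell in ccr-1 (-0.505 ± 0.09) and further in HCT-RNAi (-2.20 ± 0.09; ccr-1 minus HCT-RNAi 1.69 ± 0.09, adjusted p = 5.48e-09). FER, a receptor kinase for RALF peptides, fell in ccr-1 (-0.29 ± 0.06). Its change of -0.17 ± 0.06 in HCT-RNAi passed (adjusted p = 0.0306), but not without HCT-RNAi replicate 1 or 2 or WT replicate 7 or 8, where it was -0.18 to -0.15. RALF23, a peptide that acts through FER to dampen FLS2 complex formation, had 3192, 2883 and 2961 on the ccr-1 arrays, 1524, 1459 and 1512 on the HCT-RNAi arrays, and 1588, 1634 and 1664 on the WT arrays. It rose by 0.89 ± 0.06 in ccr-1 and was at -0.12 ± 0.06 in HCT-RNAi without passing (adjusted p = 0.0867), although the HCT-RNAi arrays lay below all WT arrays. That change of RALF23 passed with 32 added to the intensities (adjusted p = 0.0342), with an intensity trend in the spread (0.0338) and after median centring, where it was -0.22 (0.00851).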

How the data were processed

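RNA of 9 stem samples was labelled with biotin from 1.5 µg of total RNA, per the labels' protocols. The submitters' processing notes name RMA and MAS5; their settings and versions: not given in the sources used here. On a linear scale, deposited intensities of the authors' full table were the starting point. The detection calls (present, marginal or absent), which are not numbers, come from the authors' deposited table of 3785 probe sets, whose intensities equal those of the full table. RMA makes the arrays' distributions alike and compresses changes near the floor. The plan allowed for either a log2 or a linear scale, and log2 of the linear values was used. After 64 control probe sets were left out, 22746 were fitted with limma 3.58.1 in R 4.3.3 (a mean per group over all 9 arrays, eBayes, Benjamini-Hochberg over the probe sets fitted). Calls, and the words rose and fell, stand for an adjusted p under 0.05. Changes are log2 differences of group means ± SE, with a precision limited by the number of arrays. Alternatives were 32 added to the intensities, median centring, an intensity trend with robust spread, a minimum group mean of 6, fits of 2 groups only and leaving out each array. The code was tested on simulated data. Names came from the platform annotation or, for 1755 probe sets it does not name, from the loci in the authors' table, with symbols from RefSeq (TAIR10.1); no coordinates are given, since no build is named. Members with a name are described in full; pathway genes were eligible if called with at least a 2-fold change, and others were named to account for their list. The members and lists were chosen with earlier results of these data known.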

Additional observations from a re-analysis of the deposited data

Results flagged for a closer look

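The changes of 3 members differed between the lines by the direct test of ccr-1 against HCT-RNAi (limma, adjusted over all probe sets). For FLS2 the change against WT in ccr-1 minus that in HCT-RNAi was 0.81 on the log2 scale, with every ccr-1 array above every HCT-RNAi array, and 0.51 with 32 added to the intensities. For EFR it was -0.33 (-0.18 with 32 added) and for BIK1 -0.40, with every ccr-1 array below every HCT-RNAi array in both cases. Of all probe sets, 58.9% were called in this comparison.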

How the results depend on the processing

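No paired analysis was possible because the replicate numbers run from 1 to 9 and no number is shared between groups. Over the alternatives planned, 1038 of 1074 recomputed changes of members and pathway genes kept their direction and their side of the threshold, 20 newly passed, 7 no longer passed and 9 changed sign. FLS2 kept its call in each alternative, at -2.46 to -1.97 in ccr-1 and -3.29 to -2.49 in HCT-RNAi, with the smallest changes after 32 was added to the intensities. WAK1 kept its calls against WT at -1.01 to -0.91 and -1.19 to -1.05, and the call of EFR in ccr-1 held at -0.61 to -0.29. Between ccr-1 and HCT-RNAi the calls held too, at 0.51 to 0.90 for FLS2, -0.42 to -0.18 for EFR and -0.48 to -0.30 for BIK1, and the differences of FLS2 and EFR nearest to 0 came with 32 added. BIK1 in HCT-RNAi (0.23) passed with an intensity trend in the spread (adjusted p = 0.0345), with only the 2 groups compared (0.0312) and with only the probe sets of a group mean of at least 6 (0.0445), and EFR passed there after median centring (-0.28, adjusted p = 0.0195). Each sign change was in a difference of ccr-1 from HCT-RNAi that had not passed. Median centring turned DORN1 to 0.03 and PUB24 to 0.0641, and leaving out 1 array gave -0.1255 to 0.0518 for PUB24 and -0.0361 to 0.0942 for PBL27. Centring lowered all HCT-RNAi changes by 0.10, so that 39.5% of calls against WT were higher, against 54.2% without it, and between ccr-1 and HCT-RNAi 53.8%, against 43.1%. The pathway genes that fell numbered 21 to 25 in ccr-1 and 21 to 26 in HCT-RNAi, the lower counts with dim probe sets left out, where EFR is not tested.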

Other observations

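FLS2 was set beside the other probe sets that the authors' table describes with the words leucine-rich and kinase, a group found by a text search after values had been seen, which also holds some receptor-like proteins and a peptide gene. Of these 44 others, 33 were lower and 11 higher in ccr-1, and 27 were lower and 16 higher in HCT-RNAi. In that table as a whole 44.4% were called lower in ccr-1 and 45.8% in HCT-RNAi. The median change of the 44 was -1.06 in ccr-1 and -0.76 in HCT-RNAi. In ccr-1 AT1G51820, at -2.79, lay below FLS2, and in HCT-RNAi it was at -3.17. IOS1, called absent on all arrays of both lines, has only a bound. In ccr-1 IOS1 was at or below -2.52 (SE 0.12), which lay below FLS2 at -2.38 (SE 0.10) by a margin similar to the SEs. In HCT-RNAi its bound of -2.62 lay above FLS2 at -3.19, so IOS1 could not be placed there. At the other end AT4G34220 was 1.38 higher in ccr-1 and 1.96 higher in HCT-RNAi than in WT, and EMS1, a receptor kinase of anther development, was 1.54 and 1.11 higher.

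Besides WAKL2, 2 probe sets of that table are described as wall-associated kinases, and they too were named after their values were seen. AT1G16260 was at -1.71 ± 0.07 in ccr-1 and -2.12 ± 0.07 in HCT-RNAi, and AT1G69730 at -1.13 ± 0.09 and -0.79 ± 0.09 (SE; limma, all 4 called). Both thus lay on the same side of WT as WAK1 and WAKL2.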
